A study of Homo sapiens with 4 samples.

Results

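The proteasome is the protease that degrades ubiquitin-tagged proteins, and most of its parts are encoded by genes whose symbols start with PSM. Members were the protein-coding genes with the prefix PSMA, PSMB, PSMC, PSMD, PSME, PSMF or PSMG and a mean level of at least 1 CPM (counts scaled to a common library size) over the libraries. Of 20286 genes listed, 50 had such a symbol and 48 reached that level. PSMA8, an alpha subunit known from testis, had 0 counts, and PSMB11, the beta subunit of thymic epithelium, had 1 count in a single library. All 48 members were among the 12698 genes tested.

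The RNA came from HLE, an established human hepatocellular carcinoma line. One group of 2 libraries (vector) was from the total population of cells stably carrying the empty vector, and the other group of 2 (CYR61) from the total population with stable expression of CYR61, a secreted matrix-associated protein whose current symbol is CCN1. Per the series description each library is an independent culture, so the spread between libraries is that between cultures of 1 stable population per group. The depth was 19118548 and 21588822 estimated counts for the vector libraries, and 21388465 and 16186988 for the CYR61 libraries.

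CCN1 stood at 221 and 218 CPM in the vector libraries and at 8091 and 8620 CPM in the CYR61 libraries, a log2 fold change of 5.25 (edgeR adjusted p = 1.33e-08, SE 0.13), as the labels require. Of the hepatocyte markers, ALB, APOB and TTR had 0 counts in every library, and APOA1 and AFP stood at 0.106 CPM at most. TF stood at 10.6 and 11.7 CPM in vector and at 10.2 and 10.1 CPM in CYR61. HNF4A stood at 5.79 and 4.12 CPM in vector and at 3.81 and 3.57 CPM in CYR61, and SERPINA1 at 0.74 to 1.13 CPM. The line thus lacked some hepatocyte markers and carried others at low levels. The summed level of the 8 hepatocyte markers was 16.8 to 17.4 CPM in the vector libraries and 14.8 to 14.9 CPM in the CYR61 libraries. Leukocyte markers summed to at most 1.04 CPM in any library. Of the 4 epithelial markers none was called, and all had a log2 fold change above 0 (49.2% of all genes), with a median of 0.33. It was 0.36 for KRT8, 0.31 for KRT18, 1.06 for CDH1 and 0.0036 for EPCAM, whose groups overlapped. CDH1 rested on 20 and 23 against 56 and 28 estimated counts, and EPCAM on 6 and 30 against 24 and 9. The 4 markers summed to 3763 and 3239 CPM in vector against 4200.5 and 4663 CPM in CYR61, nearly all from KRT8 and KRT18. The 4 mesenchymal markers tested were all below 0 (median -0.28, none called), as were 6447 of all 12698 genes tested. Their sums were 1745 to 2005 CPM in vector and 1530.3 to 1806 CPM in CYR61. The part of these markers in the results below was not tested.

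The core particle of the proteasome is a barrel of stacked rings. Its outer rings are made of alpha subunits, which form the gate, and its inner rings of beta subunits, of which PSMB5, PSMB6 and PSMB7 carry the catalytic sites. Interferon induces the replacements PSMB8, PSMB9 and PSMB10, which give the immunoproteasome and favour peptides for class I antigen presentation. The regulatory particle caps the barrel. Its ATPases (PSMC) unfold the substrate, and its non-ATPase subunits (most PSMD genes) bind and remove ubiquitin or form the lid. The transcription factor NFE2L1 raises constitutive subunit genes together when proteasome activity is short, by binding antioxidant response elements with small MAF partners.

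Promoter windows of the members were searched for the letters of elements that NFE2L1 or interferon factors are known to bind. RefSeq windows on GRCh38.p14, from 250 bases before to 50 bases after a start, were matched for 42 of the 48 members and gave 53 windows. Each stretch below is 30 bases of such a window, 5′ to 3′ on the gene's strand, with the matched letters in capitals. The first set holds some of the matches to the antioxidant response element, searched as TGACNNNGC on both strands (GCNNNGTCA on the reverse).
PSMA4, chr15:78540650-78540679, plus strand: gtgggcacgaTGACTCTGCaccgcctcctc
PSMB3, chr17:38752627-38752656, plus strand: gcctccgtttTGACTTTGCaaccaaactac
PSMC5, chr17:63827654-63827683, plus strand: gaccggatctGCTGTGTCAgcgccgccctc
PSMD1, chr2:231056887-231056916, plus strand: ggcggcctgaggaggcgacTGACTGAGCag
PSMD3, chr17:39980760-39980789, plus strand: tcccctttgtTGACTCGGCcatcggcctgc
PSMD12, chr17:67366723-67366752, minus strand: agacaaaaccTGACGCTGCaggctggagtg
PSMB9, chr6:32854034-32854063, plus strand: gggcggggctGCCTCGTCActtgtctcggg
PSME1, chr14:24136098-24136127, plus strand: atggcagggcTGACCCCGCctcctccatcc
PSME2, chr14:24146766-24146795, minus strand: ccctggactgTGACCCAGCcagcaccgcct

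The second set holds matches to the interferon-stimulated response element, searched on both strands as GAAA, any 2 bases and GAAA again (TTTC, any 2 bases and TTTC on the reverse). It is shown in full because this element is known to act in the promoters of interferon-induced genes, and matches were not limited to interferon-type members.
PSMB8, chr6:32844032-32844061, minus strand: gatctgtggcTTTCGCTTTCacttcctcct
PSMB10, chr16:67936852-67936881, minus strand: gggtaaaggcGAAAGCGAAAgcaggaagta
PSME1, chr14:24136189-24136218, plus strand: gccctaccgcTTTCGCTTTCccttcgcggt
PSME2, chr14:24146619-24146648, minus strand: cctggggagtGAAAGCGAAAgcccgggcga
PSMG4, chr6:3258904-3258933, plus strand: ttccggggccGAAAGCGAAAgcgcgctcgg
PSMA4, chr15:78540155-78540184, plus strand: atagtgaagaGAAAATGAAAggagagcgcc
PSMB4, chr1:151399495-151399524, plus strand: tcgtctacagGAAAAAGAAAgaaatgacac

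The antioxidant response element letters occurred in 15 of the 53 member windows (28.3%) and in 13.3% of all 35116 windows of the same length. Among constitutive subunits of the core and the regulatory particle, 7 of 26 members with a window had a match. Among interferon-type members 3 of 5 did (PSMB9, PSME1 and PSME2). Counted by window, like the share of all windows, these were 7 of 32 constitutive and 3 of 6 interferon-type windows. The remaining members with a match were the assembly chaperones PSMD5, PSMD9, PSMG1 and PSMG2 and the activator PSME4. The interferon-stimulated letters occurred in 7 member windows (13.2%) and in 3.6% of all windows. They were found for 4 of the 5 interferon-type members (PSMB8, PSMB10, PSME1 and PSME2, but not PSMB9). They were also found for 2 of 26 constitutive members, PSMA4 and PSMB4, and for the chaperone PSMG4. Counted by window, these were 4 of 6 interferon-type and 2 of 32 constitutive windows. Of the 5 members with both CYR61 libraries below both vector libraries, PSMB8, PSME1 and PSME2 had these letters and PSMB9 and PSMC3IP did not. Of the other members with these letters, PSMB10, PSMG4 and PSMA4 had overlapping groups and PSMB4 had both CYR61 libraries above both vector libraries. A link between the letters and the differences was not tested. CCAAT, or ATTGG on the reverse strand, occurred in 43.4% of member windows and 34.6% of all windows. A match describes these letters and is no measurement of binding.

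Of the 48 members, 4 passed the test and were higher in the CYR61 libraries. All 4 encode non-ATPase subunits of the regulatory particle: PSMD1, PSMD6, PSMD11 and PSMD13. No member was called lower. In bulk RNA, a difference in the share of cells and one in the RNA per cell cannot be told apart. A gene is called at an edgeR quasi-likelihood adjusted p under 0.05, with Benjamini-Hochberg adjustment over all 12698 genes, of which 6.39% were called (1.83% higher and 4.56% lower in CYR61). At an unadjusted edgeR p under 0.05 there were 19 of 48 members higher and 3 lower, against 1241 and 1673 of all 12698 genes. DESeq2 called 9 members higher (2.87% of all genes) and 0 lower (4.39% of all genes).

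The members' median log2 fold change, CYR61 minus vector, was 0.24, against -0.0057 over all tested genes. It was above 0 for 42 of 48 members and for 49.2% of all genes. Both CYR61 libraries lay above both vector libraries for 30 members (23.9% of all genes) and below both for 5 (27.7% of all genes). The 31 constitutive subunits had log2 fold changes of 0.14 to 0.62, with overlapping groups for 5 of them and 4 called. Their summed level was 5942 and 5465 CPM in vector and 6839 and 7005 CPM in CYR61.

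**Figure D1:**
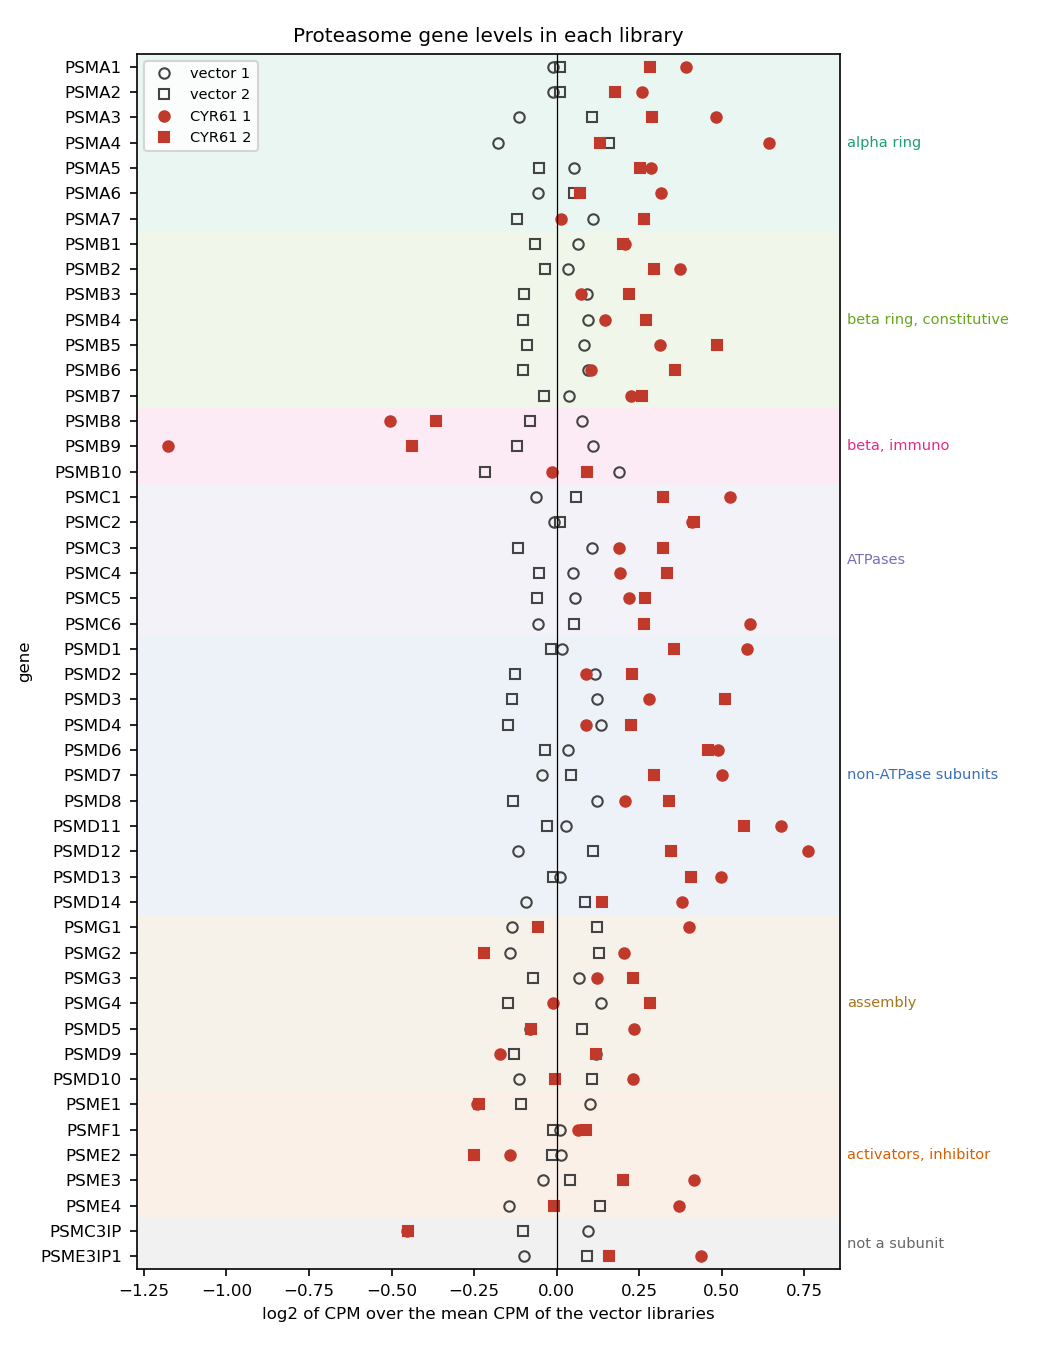
Level of each of the 48 proteasome genes in each library, as the log2 of its CPM over the mean CPM of the vector libraries (horizontal axis), with genes grouped by class. Open symbols are the vector libraries and filled symbols the CYR61 libraries; both filled symbols lie to the right of both open symbols for 30 genes and to the left for 5.

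Within each group the libraries differed in a way that followed GC content. Over the 48 members Spearman's rho between transcript GC and the log2 difference was -0.78 within the vector group (library 2 minus 1) and -0.75 within the CYR61 group (library 1 minus 2). For the log2 fold change between groups it was -0.38. Over all genes of at least 5 CPM with a GC value, rho was -0.75 within the vector group (library 2 minus 1). Within the CYR61 group it was 0.8 over these genes, taken as library 2 minus 1, the opposite order to that used for the members. For the log2 fold change between groups it was -0.18 over these genes. The median log2 fold change was 0.32 in the 24 members below their median GC of 48.9% and 0.16 in the 24 at or above it. These are descriptions across genes that share the same libraries.

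With each library's GC trend removed by an offset in the same edgeR test, 28 members were called higher and 3 lower (PSMB8, PSMB9 and PSMC3IP), and the median was 0.26. The background rose as well, to 18.6% of all genes higher and 12.4% lower, 2359 and 1572 genes. The part of GC content in the difference between the groups was not tested further.

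**Figure D2:**
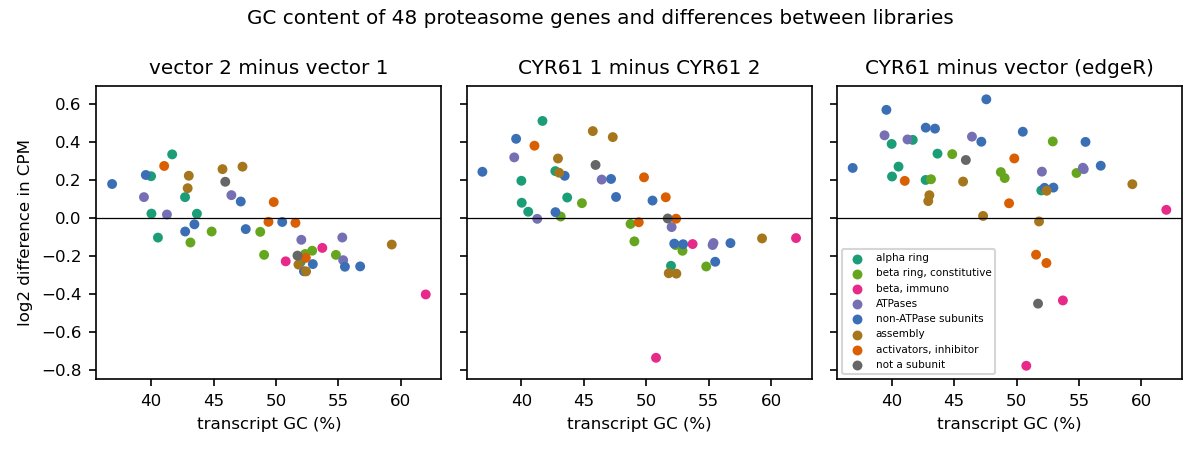
Log2 difference in CPM (vertical axis) against transcript GC in percent (horizontal axis) for the 48 proteasome genes, coloured by class. The left and middle panels compare libraries within a group (rho -0.78 and -0.75) and the right panel shows the log2 fold change between groups (rho -0.38), where PSMB8, PSMB9 and PSMC3IP lie lowest.

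The largest log2 fold change among members was that of PSMD11, a scaffold subunit of the lid (chr17:32444261-32483318, plus strand, ENSG00000108671; gene positions here and below are from GENCODE 29 on GRCh38). It stood at 118 and 113 CPM in the vector libraries and at 185 and 172 CPM in the CYR61 libraries. The CYR61 libraries were both higher, without overlap, and the log2 fold change was 0.62 (edgeR adjusted p = 0.0102, SE 0.11), or 1.54-fold. The call was lost when vector 2 was left out (edgeR adjusted p = 0.0654) and held without each of the other libraries.

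PSMD6, also a lid subunit (chr3:64010549-64024010, minus strand, ENSG00000163636), stood at 57.8 and 54.9 CPM in vector and at 79.1 and 77.5 CPM in CYR61. The libraries of each group lay close together, and the log2 fold change was 0.48 (edgeR adjusted p = 0.0445, SE 0.12). PSMD13, another lid subunit (chr11:236546-252984, plus strand, ENSG00000185627), stood at 97.3 and 95.8 CPM in vector and at 136 and 128 CPM in CYR61. Its log2 fold change was 0.45 (edgeR adjusted p = 0.0425, SE 0.11). PSMD1, a large scaffold subunit of the base (chr2:231056864-231172827, plus strand, ENSG00000173692), stood at 128 and 125 CPM in vector and at 188 and 161 CPM in CYR61. The groups did not overlap, CYR61 1 was the higher of its group, and the log2 fold change was 0.47 (edgeR adjusted p = 0.0462, SE 0.12).

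These 3 calls were near the threshold. Without vector 1, vector 2 or CYR61 1 none of the 3 was called (edgeR adjusted p from 0.128 to 0.269). Without CYR61 2, PSMD6 had an edgeR adjusted p of 0.0665, and PSMD1 and PSMD13 were called. With library sizes alone and no scaling factors, PSMD11 was the only member called, and PSMD1 also lost its call with a filter of 5 CPM in 2 libraries. All 4 called genes share exon bases with models on the opposite strand, PSMD1 with HTR2B, PSMD13 with SIRT3, PSMD11 with AC005899.8 (675 bases) and PSMD6 with PSMD6-AS1 and PSMD6-AS2 (441 and 352 bases). Strandedness, not given in the sources used here, decides whether such reads can be told apart. The models at PSMD11 and PSMD6 were not analysed here. The log2 ratio of group means was 0.47 for PSMD1 alone and with HTR2B added, and 0.45 for PSMD13 alone and 0.39 with SIRT3 added.

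The 8 lid genes with the PSMD prefix (PSMD3, PSMD6, PSMD7, PSMD8, PSMD11, PSMD12, PSMD13 and PSMD14) had both CYR61 libraries above both vector libraries (23.9% of all genes). Their log2 fold changes were 0.26 to 0.62. SEM1, a small lid subunit without the prefix, stood at 61.3 and 51.5 CPM in vector and at 56.8 and 56.6 CPM in CYR61, which overlapped (log2 fold change 0.0084). PSMD12, a lid subunit, stood at 54.3 and 63.5 CPM in vector and at 99.8 and 74.8 CPM in CYR61. It did not pass the test (log2 fold change 0.57, edgeR adjusted p = 0.0609, SE 0.16), and the CYR61 libraries differed from each other by more than the vector libraries did. The lowest values of the class were those of PSMD2, the other large scaffold of the base, and PSMD4, a ubiquitin receptor, each with a log2 fold change of 0.16 and overlapping groups. Over the 11 non-ATPase subunits the median was 0.40, and 4 were called higher (1.83% of all genes). With the GC trend removed 9 were called higher (18.6% of all genes).

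**Figure D3:**
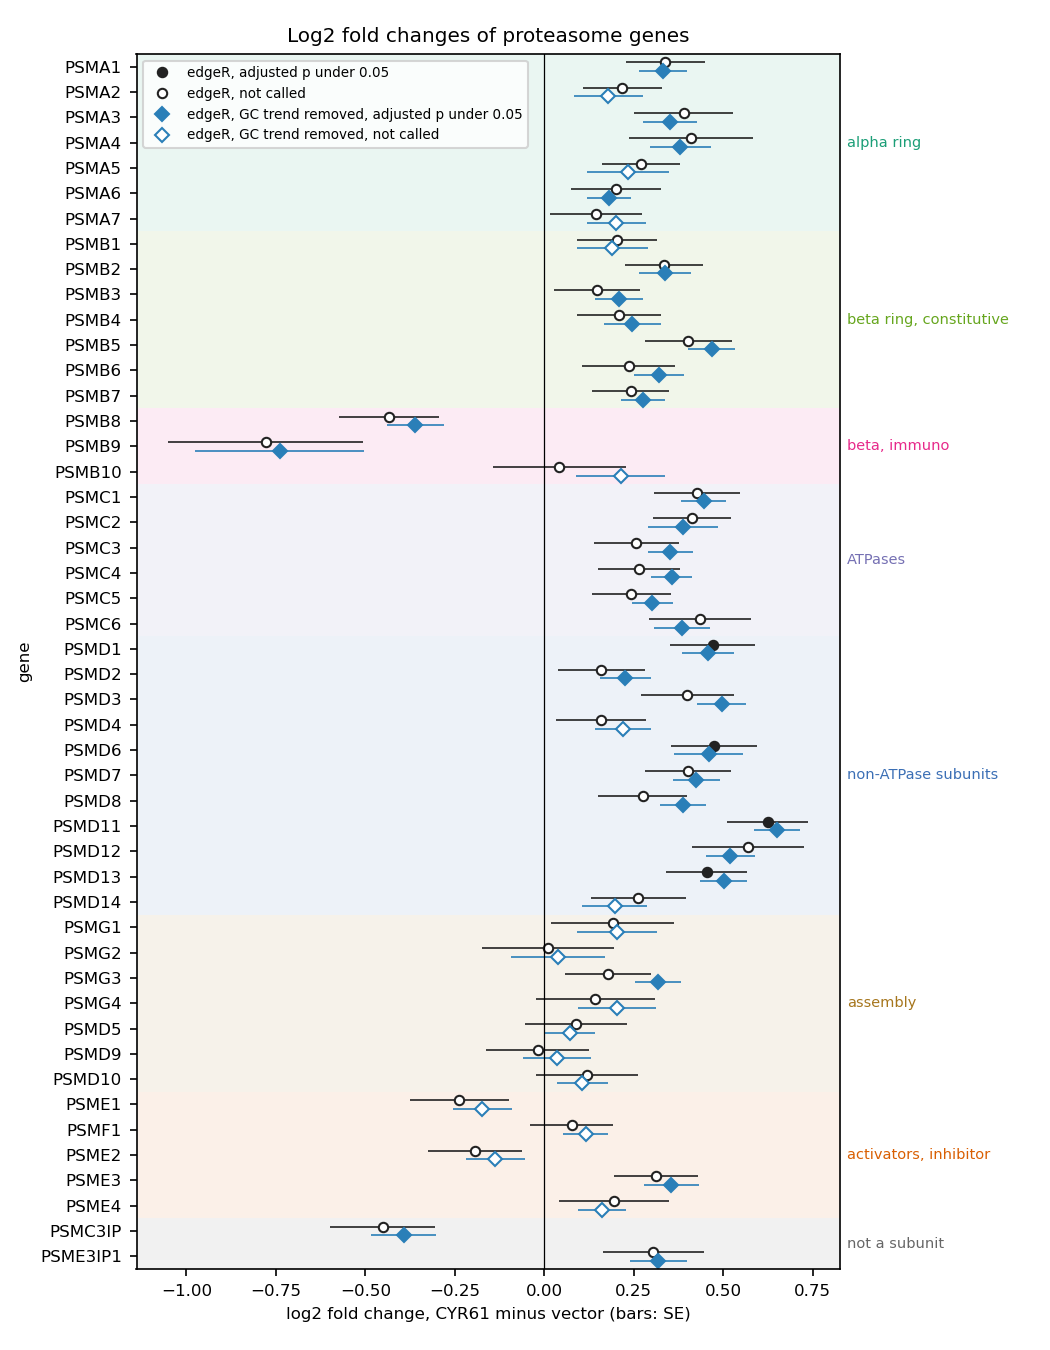
Log2 fold change of each proteasome gene, CYR61 minus vector (horizontal axis), with bars of 1 SE. Black circles are the edgeR fit and blue diamonds the fit with the GC trend removed; filled symbols were called. In the edgeR fit 4 genes were called higher (1.83% of all genes), all non-ATPase subunits. With the GC trend removed 28 were called higher (18.6% of all genes) and PSMB8, PSMB9 and PSMC3IP lower (12.4% of all genes).

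None of the 6 ATPases passed the test, although both CYR61 libraries lay above both vector libraries for each of them (23.9% of all genes). The smallest p of the class was that of PSMC2, one of the ring ATPases, which stood at 135 and 136 CPM in vector and at 180.1 and 180.7 CPM in CYR61. Both groups were tight, and the log2 fold change was 0.41 (edgeR adjusted p = 0.0509, SE 0.11). The 6 ATPases had log2 fold changes of 0.24 to 0.43 with a median of 0.34. All 6 were called higher with the GC trend removed (18.6% of all genes). PSMC5 shares 874 exon bases with FTSJ3 on the opposite strand, and the log2 ratio of group means was 0.24 for PSMC5 and 0.40 for their sum. PSMC1 has 13 pseudogenes named after it in GENCODE 29, and its value is uncertain because reads that fit several copies may be split between them. PSMC1 also shares 4671 exon bases with NRDE2 on the opposite strand. The log2 ratio of group means was 0.43 for PSMC1 and 0.44 for their sum.

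The 7 alpha subunits had log2 fold changes of 0.14 to 0.41, median 0.27, and none was called. PSMA1, the alpha subunit of smallest p, stood at 137 and 139 CPM in vector and at 181 and 168 CPM in CYR61. The groups did not overlap (log2 fold change 0.34, edgeR adjusted p = 0.101, SE 0.11). With the GC trend removed, 4 alpha subunits were called higher (18.6% of all genes).

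The 7 constitutive beta subunits had log2 fold changes of 0.15 to 0.40, median 0.24, and none was called. Once the GC trend was removed, 6 were called higher (18.6% of all genes). PSMB5, which carries the chymotrypsin-like site, stood at 149 and 132 CPM in vector and at 175 and 197 CPM in CYR61, a log2 fold change of 0.40 (edgeR adjusted p = 0.0802, SE 0.12). PSMB6, which carries the caspase-like site, stood at 156 and 136 CPM in vector and at 157 and 187 CPM in CYR61, a log2 fold change of 0.24 (edgeR adjusted p = 0.31, SE 0.13). PSMB7, which carries the trypsin-like site, stood at 318 and 302 CPM in vector and at 363 and 371 CPM in CYR61, a log2 fold change of 0.24 (edgeR adjusted p = 0.21, SE 0.11). The CYR61 libraries were the higher ones for these 3 genes, by little for PSMB6.

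Of the immunoproteasome subunits, PSMB8 and PSMB9 had lower values in both CYR61 libraries and PSMB10 did not separate the groups. PSMB8, the replacement for PSMB5 (chr6:32840717-32844703, minus strand, ENSG00000204264), stood at 43.4 and 38.9 CPM in vector and at 28.98 and 31.9 CPM in CYR61. Its log2 fold change was -0.43 (edgeR adjusted p = 0.0968, SE 0.14), so it was not called. PSMB9, the replacement for PSMB6 (chr6:32844136-32859585, plus strand, ENSG00000240065), stood at 6.69 and 5.71 CPM in vector and at 2.74 and 4.57 CPM in CYR61.

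PSMB9 rested on 126 and 126 against 59 and 73 estimated counts, the fewest of all members, and its log2 fold change of -0.78 (edgeR adjusted p = 0.118, SE 0.27) was the lowest of the members. Without CYR61 2 it was called lower (edgeR adjusted p = 0.00526), and without CYR61 1 its edgeR adjusted p was 0.533. PSMB8 and PSMB9 lie next to each other and share 139 exon bases on opposite strands, and the log2 ratio of group means for their sum was -0.47. PSMB10, the replacement for PSMB7 on chromosome 16, stood at 14.9 and 11.3 CPM in vector and at 12.98 and 13.97 CPM in CYR61, a log2 fold change of 0.04 (edgeR adjusted p = 0.924, SE 0.19).

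The share of each immunoproteasome subunit in its catalytic pair was computed per length, as RPKM, the CPM divided by transcript length in kilobases. PSMB8 made up 25.1% and 25.3% of PSMB8 plus PSMB5 in vector and 16.02% and 15.7% in CYR61. PSMB9 made up 4.47% and 4.37% of PSMB9 plus PSMB6 in vector and 1.87% and 2.59% in CYR61. The groups did not overlap for these pairs, and PSMB8 differed between groups by far more than between libraries of a group. PSMB10 made up 3.63% and 2.91% of PSMB10 plus PSMB7 in vector and 2.80% and 2.94% in CYR61, which overlapped. The shares depend on the length used: with all exons joined, the PSMB8 share was 14.7% in vector and 8.79% in CYR61 and the PSMB9 share 1.96% and 0.978%. The shares are given without a test, and an exact two-sided permutation test of 2 against 2 libraries cannot go below p = 0.333.

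**Figure D4:**
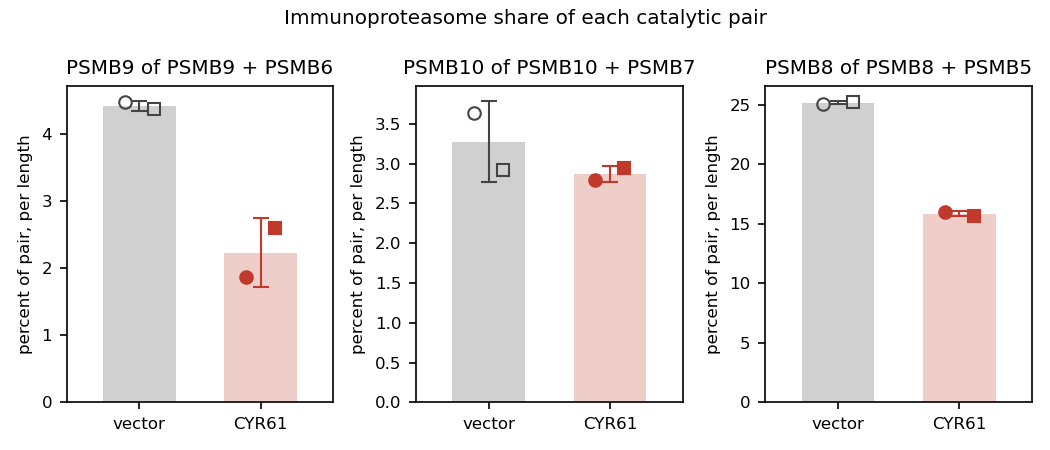
Immunoproteasome subunit as a percent of its catalytic pair, from levels per length of the principal transcript (vertical axis), in the vector and CYR61 groups. Points are libraries, bars are means and whiskers are the SD of 2 libraries; the PSMB8 share was 25.2% ± 0.14 in vector and 15.9% ± 0.23 in CYR61, and the PSMB10 share overlapped between groups.

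The 7 assembly chaperones, which help build the particles and leave them afterwards, had log2 fold changes of -0.02 to 0.19. Their median of 0.12 lay between that of all tested genes (-0.0057) and that of the members (0.24), and none was called. The groups overlapped for 6 of 7 chaperones and for 6154 of all 12698 genes. PSMG3, a chaperone of the alpha ring, had the smallest p of the class. It stood at 85.7 and 77.8 CPM in vector and at 89.0 and 95.9 CPM in CYR61 (log2 fold change 0.18, edgeR adjusted p = 0.418, SE 0.12).

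Activators and the inhibitor were mixed in sign, and none of the 5 was called. PSME3, the nuclear activator, stood at 233 and 247 CPM in vector and at 320.1 and 276 CPM in CYR61, a log2 fold change of 0.31 (edgeR adjusted p = 0.141, SE 0.12). The interferon-inducible activators PSME1 and PSME2 had log2 fold changes of -0.24 and -0.19 (edgeR adjusted p = 0.34 and 0.418), with both CYR61 libraries below both vector libraries. The remaining values were 0.19 for PSME4 and 0.08 for PSMF1, the inhibitor.

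PSMC3IP and PSME3IP1 carry the prefix but encode proteins that interact with a proteasome gene product and are no subunits. PSMC3IP, a factor of meiotic recombination, stood at 35.1 and 30.6 CPM in vector and at 24.0 and 24.1 CPM in CYR61, a log2 fold change of -0.45 (edgeR adjusted p = 0.0986, SE 0.15). It shares 770 exon bases with MLX on the opposite strand. The log2 ratio of group means was -0.45 for PSMC3IP and -0.25 for their sum. PSME3IP1 had a log2 fold change of 0.30 (edgeR adjusted p = 0.229).

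Levels per length ranged widely among the 46 subunit, assembly and activator genes. PSMA7, an alpha subunit, had the highest mean level, 520 ± 58.9 RPKM in vector and 575 ± 70.9 RPKM in CYR61 (SD, n = 2), which overlapped. PSMB7 (345 RPKM over all libraries) and PSMC3 (344 RPKM) followed and did not differ beyond their spread. PSMB9 had the lowest, 7.93 ± 0.89 RPKM in vector and 4.68 ± 1.65 RPKM in CYR61. Class medians were 187 RPKM for constitutive beta subunits, 88.2 for alpha subunits, 81.9 for ATPases, 57.4 for non-ATPase subunits, 27.9 for activators and inhibitor, 25.2 for assembly chaperones and 10.9 for immunoproteasome subunits. The length is that of the principal spliced transcript of each gene. With all exons joined as the length, 36 of 46 levels were lower by over 1.5 times, most for PSMG4 (35.4 to 2.84 RPKM). The class median of the alpha subunits was then 24.6 RPKM, below those of the ATPases (45.8) and non-ATPase subunits (29.02), while the constitutive beta subunits were still highest and the immunoproteasome subunits lowest (109.8 and 7.17).

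**Figure D5:**
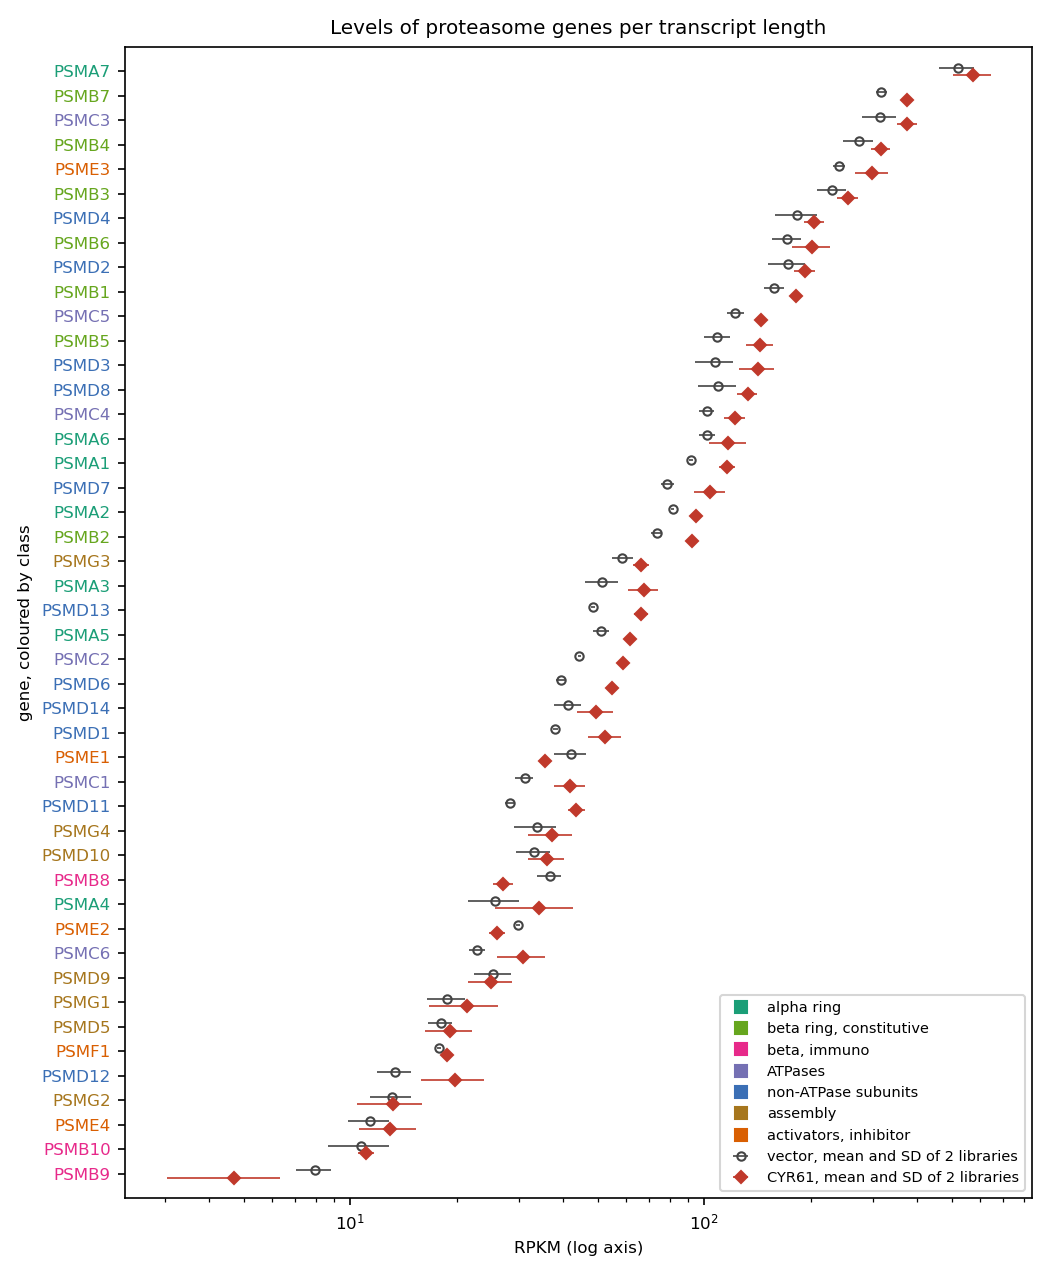
Mean level per transcript length of 46 proteasome genes in RPKM on a log axis (horizontal), ordered by the mean over all libraries, with bars of 1 SD of 2 libraries. Open circles are vector and filled diamonds CYR61; levels run from PSMA7 at the top to PSMB9 at the bottom, and the constitutive beta subunits lie above the immunoproteasome subunits PSMB8, PSMB9 and PSMB10.

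Other genes of the pathway were read from the same fit. Of 13 further subunits and bound proteins, none was called, with a median log2 fold change of 0.21 and 7 called higher with the GC trend removed. POMP, the maturation factor of the core particle, stood at 40.5 and 52.0 CPM in vector and at 78.9 and 56.6 CPM in CYR61. The groups did not overlap, but CYR61 2 lay close to vector 2 (log2 fold change 0.55, edgeR adjusted p = 0.1, SE 0.18). Of 13 ubiquitin and delivery genes, none was called and the median was 0.15. NPLOC4, a cofactor of the segregase VCP, had the smallest p (log2 fold change 0.26, edgeR adjusted p = 0.202).

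In the NFE2L1 route, 1 of 9 genes rose and 2 fell (1.83% and 4.56% of all genes). VCP, the segregase that pulls NFE2L1 from the endoplasmic reticulum, stood at 318 and 283 CPM in vector and at 415 and 445 CPM in CYR61 and rose by a log2 fold change of 0.52 (edgeR adjusted p = 0.0253, SE 0.11). The call was lost without vector 2 (edgeR adjusted p = 0.208) or CYR61 2 (0.0644). The small MAF partners MAFF and MAFK fell. MAFF stood at 39.8 and 37.0 CPM in vector and at 17.03 and 21.1 CPM in CYR61 (log2 fold change -1.01, edgeR adjusted p = 0.00497, SE 0.16), and was called without any 1 of the libraries. MAFK stood at 311 and 295 CPM in vector and at 182 and 206 CPM in CYR61 (log2 fold change -0.64, edgeR adjusted p = 0.00974, SE 0.12), with an edgeR adjusted p of 0.0508 without CYR61 1. NFE2L1 itself stood at 282 and 262 CPM in vector and at 223 and 237 CPM in CYR61, and was not called (log2 fold change -0.24, edgeR adjusted p = 0.22, SE 0.11).

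In the list of class I antigen processing and interferon control genes, 3 of 16 fell (4.56% of all genes), none rose, and 2 had a log2 fold change above 0 (49.2% of all genes). IRF1, a transcription factor induced by interferon, stood at 19.4 and 20.4 CPM in vector and at 11.8 and 12.1 CPM in CYR61 (log2 fold change -0.74, edgeR adjusted p = 0.0242, SE 0.16). TAPBP, which loads peptides onto class I molecules, stood at 164 and 150.3 CPM in vector and at 108 and 118 CPM in CYR61 (log2 fold change -0.48, edgeR adjusted p = 0.039, SE 0.12). HLA-B, a class I heavy chain, stood at 80.2 and 73.0 CPM in vector and at 48.8 and 57.8 CPM in CYR61 (log2 fold change -0.52, edgeR adjusted p = 0.0471, SE 0.13), a value that is uncertain because HLA genes are near-identical copies. Each of the 3 calls was lost without vector 1, vector 2 or CYR61 1 (edgeR adjusted p from 0.0514 to 0.305). The list's median was -0.22. NLRC5, the class I transactivator, lay the other way at 27.8 and 24.8 CPM in vector and 29.6 and 36.4 CPM in CYR61, without overlap, and was not called (log2 fold change 0.33, edgeR adjusted p = 0.249), though it was called higher with the GC trend removed.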

How the data were processed

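RNA-seq was compared in 2 vector and 2 CYR61 libraries of HLE cells. The authors deposited estimated counts per Ensembl gene and library, of which 11.2% to 12% were not whole. Per the submitters' processing notes the build was hg38 and Cuffdiff 1.3.0, Cufflinks 2.2.1 and TopHat2 2.1.1 were named. The counting program, its annotation and the strand setting were not stated there.

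Estimated counts were rounded, filtered by filterByExpr (12698 genes kept), scaled by TMM and fitted on group with edgeR 4.0.16 (quasi-likelihood test, R 4.3.3, Benjamini-Hochberg, threshold 0.05). CPM uses TMM-scaled library sizes. Each SE is the absolute log2 fold change over the square root of F. Symbols came from a name table (20228 of 20286 identifiers), positions, GC content and transcript lengths from GENCODE 29 (20212 identifiers). The GC trend was removed by an offset per library, a natural spline with 5 degrees of freedom over 12668 genes. DESeq2 1.42.0, limma-voom 3.58.1, other scalings and filters, a replicate block and each library left out were alternatives. Scripts were tested on simulated data.

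The members and lists were chosen with earlier results of these data known. Named with values were CCN1, called members, the member of smallest p in a class with none called, PSMB5 to PSMB10, the members of highest and lowest level and log2 fold change, called genes of other lists (or the one of smallest p), NFE2L1 and POMP. PSMD12, PSMD2, PSMD4, PSME1, PSME2, PSME4, PSMF1, PSMC5, PSMC1, PSME3IP1, PSMG4, SEM1, NLRC5, KRT8, KRT18 and the promoter examples were chosen after their values were seen. The same holds for the hepatocyte markers named, CDH1 and EPCAM. The 8 lid genes were not a planned class and were grouped in addition to the planned classes.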

Additional observations from a re-analysis of the deposited data

How the results depend on the processing

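The members' median log2 fold change was 0.22 to 0.28 under every alternative run, while the calls moved. For all genes, the counts higher and lower were 363 and 555 with DESeq2, 219 and 555 with limma-voom, 648 and 1029 with no filter, and 2359 and 1572 with the GC trend removed.

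DESeq2 called 9 members higher, with 1 constitutive beta subunit, 2 ATPases and, outside the members, 1 of the further subunits. With no filter 12 members were higher (1 alpha, 1 beta, 3 ATPases, 7 non-ATPase) and 1 immunoproteasome subunit lower, with 1 further subunit higher. With library size alone 1 member was called, a non-ATPase subunit. With RLE size factors 1 class I gene was lower.

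With the GC trend removed, 28 members were higher (4 alpha, 6 beta, 6 ATPases, 9 non-ATPase, 1 assembly, 1 activator, 1 non-subunit) and 3 lower (2 immunoproteasome, 1 non-subunit). Outside the members, 7 further subunits, 5 ubiquitin genes and 1 class I gene were higher, and 4 NFE2L1 route genes lower. Of all genes, 18.6% were higher and 12.4% lower in this fit.

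Same-numbered libraries deviated from their group means in opposite directions (correlation -0.71 over 10378 genes of at least 5 CPM), so the numbers were not taken to pair them. With the replicate block 53 genes were higher and 338 lower, 0 members were called (0 non-ATPase), the NFE2L1 route had 0 higher and 1 lower, and the class I list 0 lower. With the GC trend removed and the replicate block together 1820 genes were higher and 1264 lower, with 24 members higher (3 alpha, 4 beta, 6 ATPases, 8 non-ATPase, 1 assembly, 1 activator, 1 non-subunit) and 3 lower (2 immunoproteasome, 1 non-subunit), 5 further subunits, 4 ubiquitin genes and 1 class I gene higher. A crossed pairing, added after the data were seen, called 2748 genes higher and 2876 lower, with 36 members higher (7 alpha, 7 beta, 6 ATPases, 11 non-ATPase, 2 assembly, 2 activators, 1 non-subunit) and 5 lower (2 immunoproteasome, 2 activators, 1 non-subunit), 9 further subunits higher and 2 lower, 6 NFE2L1 route genes lower, 7 ubiquitin genes higher and 1 lower, and 1 class I gene higher and 11 lower.

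Leaving out 1 library at a time gave 104 to 538 genes higher and 377 to 793 lower. It gave 1 to 8 members higher and 0 to 1 lower (0 to 1 alpha, 0 to 2 ATPases and 1 to 5 non-ATPase higher, 0 to 1 immunoproteasome lower), 0 to 2 further subunits higher, 0 to 1 NFE2L1 route genes higher and 1 to 2 lower, and 0 to 5 class I genes lower. The 8 were without CYR61 2, and without vector 2 none of the 4 reported calls was made.

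With the length of all exons joined, an alternative added after the data were seen, the immunoproteasome shares were 1.96% in vector and 0.978% in CYR61 for PSMB9, 3.90% and 3.42% for PSMB10, and 14.7% and 8.79% for PSMB8. The highest level was then 311 RPKM and the lowest 1.6 RPKM.

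Log2 fold changes near 0 changed sign. PSMD9 was 0.0015 with DESeq2, and 0.035 with the GC trend removed, without and with the replicate block. PSMG2 was -0.0027 with library size alone, -0.0059 with a 5 CPM filter and -0.00018 with the replicate block. With 1 library left out, PSMD9 ranged from -0.17 to 0.13, PSMG2 from -0.21 to 0.20, PSMD5 from -0.066 to 0.24, PSMG1 from -0.046 to 0.40, PSMG4 from -0.0076 to 0.30 and PSMB10 from -0.14 to 0.25. With 2 libraries a group, differences of this size are not resolved, and the cause of these moves was not tested.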
